A study of Mus musculus with 6 samples.

Results

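Transcripts of 9 genes that mark erythroid cells were examined in RNA-Seq libraries of coronary endothelial cells (ECs) sorted from mouse hearts at E15.5. The genes were chosen by symbol, and all 9 were found among the 55416 genes of the count table. They are the embryonic globins *Hba-x*, *Hbb-y* and *Hbb-bh1*, the adult globins *Hba-a1*, *Hba-a2*, *Hbb-bs* and *Hbb-bt*, the haem synthesis enzyme gene *Alas2* and the anion exchanger gene *Slc4a1*. The study asked what loss of *Wt1*, which encodes a zinc finger transcription factor, does to the transcriptome of coronary ECs during formation of the vascular plexus. ControlΔEC embryos were Pdgfb-CreERT2/+, Wt1+/+ and R26mTmG/+, and Wt1KOΔEC embryos were Pdgfb-CreERT2/+, Wt1 loxP/loxP and R26mTmG/+. Both groups therefore carried the tamoxifen-inducible Cre, which the EC-active *Pdgfb* gene drives, and 1 copy of a reporter that switches from membrane Tomato to membrane GFP (mGFP) after recombination. Dams of both groups received tamoxifen at 75 mg/kg by gavage from E11.5 to E13.5, the ventricles were digested at E15.5, and mGFP+ cells were collected, with 3 libraries per group. The mating could give both genotypes in a litter, but neither the labels nor the methods tie a library to a litter or say how many hearts it held, and cells without recombination were not sequenced.

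Haemoglobin joins alpha-like and beta-like globin chains, each chain holding a haem. In the mouse, primitive erythroid cells that arise in the yolk sac make the embryonic chains zeta (*Hba-x*), epsilon-y (*Hbb-y*) and beta-h1 (*Hbb-bh1*), and definitive erythroid cells, which the fetal liver makes from mid-gestation, carry the adult chains. ALAS2 is the erythroid form of the enzyme that catalyses the first and rate-limiting step of haem synthesis, and SLC4A1 (band 3) exchanges chloride for bicarbonate in the red cell membrane and anchors it to the cytoskeleton. ECs are not known as a main source of any of these transcripts.

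The libraries held between 26037324 and 44779020 expected counts, and levels are given as CPM (counts scaled to a common library size) after TMM normalization. At these depths 3 counts, taken as the floor of detection, correspond to 0.0608 to 0.119 CPM. The floor covers counting error only, because reads amplified without molecular identifiers are not independent molecules. *Wt1* was at 110 to 149 CPM in ControlΔEC and at no more than 21.3 CPM in Wt1KOΔEC (log2 fold change -2.91; edgeR's quasi-likelihood test, adjusted p = 0.00319). Among 8 endothelial markers, *Pecam1* was the highest, at 1385 to 1852 CPM in ControlΔEC and 1404 to 1684 CPM in Wt1KOΔEC. The nuclear ribosomal RNA gene *Rn18s* took 13.2% to 15.3% of the counts in ControlΔEC and 21.0% to 26.5% in Wt1KOΔEC, and mitochondrially encoded genes 5.21% to 6.61% and 1.68% to 4.57%. With library sizes and TMM factors computed without these genes, an alternative chosen once the data were known, the log2 fold changes of *Hbb-y* and *Hba-x* were 2.57 and 2.11, as in the fit with them. That alternative changes only how the libraries are scaled. Whether what lies behind the difference in these shares bears on the members was not tested. The identifiers that the labels give the libraries begin with different letters in the 2 groups, so whatever goes with them cannot be told apart from genotype.

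The globin members lie in 2 clusters in which the embryonic genes come first in the direction of transcription. On GRCm39 (GENCODE vM39, first annotated transcript of each gene), the alpha cluster on the plus strand of chromosome 11 runs from *Hba-x* (chr11:32226400-32228116) over *Hba-a1* (chr11:32233511-32234504) to *Hba-a2* (chr11:32246396-32247298). The beta cluster on the minus strand of chromosome 7 runs from *Hbb-y* (chr7:103500956-103502423) over *Hbb-bh1* (chr7:103490844-103492371) and *Hbb-bs* (chr7:103475739-103477169) to *Hbb-bt* (chr7:103461730-103463203). *Alas2* lies at chrX:149330371-149353634 on the plus strand and *Slc4a1* at chr11:102239650-102256106 on the minus strand.

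The promoters of both embryonic globins with the largest differences between the groups, of an adult gene from each cluster and of *Alas2* are shown. The log2 fold changes of these genes differed in sign, although the groups overlapped for *Hba-a1* and *Hbb-bs*. The promoters share some proximal elements, and whether these bear on the levels was not tested. Each sequence is the 120 bases before the RefSeq start site, read 5′ to 3′ on the gene's strand. The coordinates are those of GRCm38.p6, which do not compare with the GRCm39 positions above. Capitals mark 4 short motifs. CACCC is the core of the box that Krüppel-like factors bind, CCAAT the box that gives its name to CCAAT-binding factors, and GATAA the core of GATA factor sites, while the motif TATAA stands for the TATA box. Each was searched on both strands, and a match on the other strand is capitalised as its reverse complement.
*Hbb-y*, chr7:103853208-103853327, minus strand: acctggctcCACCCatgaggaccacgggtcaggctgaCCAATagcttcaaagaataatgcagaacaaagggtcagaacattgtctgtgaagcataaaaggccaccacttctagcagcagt
*Hba-x*, chr11:32276480-32276599, plus strand: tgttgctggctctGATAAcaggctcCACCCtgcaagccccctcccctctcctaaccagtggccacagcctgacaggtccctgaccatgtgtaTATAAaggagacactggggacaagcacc
*Hbb-bs*, chr7:103827929-103828048, minus strand: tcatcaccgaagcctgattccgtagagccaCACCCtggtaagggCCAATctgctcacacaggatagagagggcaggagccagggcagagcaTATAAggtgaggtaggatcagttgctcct
*Hba-a1*, chr11:32283552-32283671, plus strand: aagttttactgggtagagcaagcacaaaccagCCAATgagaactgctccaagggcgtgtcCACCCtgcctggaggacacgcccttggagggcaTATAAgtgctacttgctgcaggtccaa
*Alas2*, chrX:150547297-150547416, plus strand: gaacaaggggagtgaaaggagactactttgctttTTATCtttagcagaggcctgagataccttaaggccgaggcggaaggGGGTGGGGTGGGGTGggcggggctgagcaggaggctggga

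RefSeq's promoter table held 7 of the 9 members, all but *Hbb-bh1* and *Slc4a1*. CACCC was present in all 7 of these windows, against 31.7% of 32851 mouse promoter windows of the same length. CCAAT was present in 5 of the 7, all but *Hba-x* and *Alas2* (21.3% of all promoters), and TATAA in 5, all but *Hbb-y* and *Alas2* (11.8%). GATAA was present in *Hba-x* and *Alas2* (10.5% of all promoters). The 7 windows are not 7 separate sequences, so these counts are not independent. *Hba-a1* and *Hba-a2* hold the same stretch at a shifted position, with CCAAT at -88 and -91. *Hbb-bs* and *Hbb-bt* are alike near the start site, each with a CACCC, at -90 and -89. No motif shared a base with another in the 7 windows. Counted back from the start site, the first bases of CACCC and CCAAT in *Hbb-y* were at -111 and -83. *Hbb-bs* held the same pair closer to the start, at -90 and -76, and in *Hba-a1* CCAAT at -88 came before CACCC at -60. A match to these letters is a description of the sequence and does not show binding. Only exact matches were counted, so a window without a match, as for TATAA in *Hbb-y*, may still hold a variant of the element.

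The adult globins were the most abundant members, and the 7 globins together took 0.863%, 1.56% and 0.688% of all counts in ControlΔEC replicates 1, 2 and 3 and 0.717%, 0.489% and 0.821% in Wt1KOΔEC replicates 1, 2 and 3. The groups overlapped in this share. On a per-length scale (CPM per kb of transcript), the mean levels in ControlΔEC were 4811 for *Hba-a1*, 3752 for *Hbb-bs*, 3293 for *Hba-a2* and 2189 for *Hbb-bt*. The other members followed far below, at 68.3 for *Alas2*, 41.4 for *Hbb-y*, 13.6 for *Hba-x*, 2.51 for *Slc4a1* and 0.936 CPM per kb for *Hbb-bh1*. Only *Hbb-bt* and *Alas2*, neighbours in this order that lay 32.1-fold apart, did not overlap across the ControlΔEC libraries, although each of the 3 libraries kept the whole order.

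In Wt1KOΔEC the order of levels was different below the adult globins. *Hba-a1*, *Hba-a2*, *Hbb-bs* and *Hbb-bt* had means of 3313, 2870, 2601 and 1267 CPM per kb. They were followed by *Hbb-y* at 247, *Hba-x* at 59.2, *Alas2* at 30.9, *Hbb-bh1* at 3.70 and *Slc4a1* at 2.37 CPM per kb. *Hbb-y* and *Hba-x* thus stood above *Alas2* in Wt1KOΔEC, where both stood below it in ControlΔEC, and in each of the 3 libraries of a group the 3 genes had the order of their means. Neighbours from *Hbb-bs* down to *Hbb-bh1* did not overlap across the Wt1KOΔEC libraries, while *Hba-a1* and *Hba-a2*, *Hba-a2* and *Hbb-bs*, and *Hbb-bh1* and *Slc4a1* did.

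The embryonic beta-like globin *Hbb-y* was higher in Wt1KOΔEC. It was at 27.7, 43.5 and 7.39 CPM in ControlΔEC replicates 1, 2 and 3 and at 183, 102 and 184 CPM in Wt1KOΔEC replicates 1, 2 and 3, from between 213 and 7145 counts per library. Every Wt1KOΔEC library lay above every ControlΔEC library, and the lowest Wt1KOΔEC library was above the highest ControlΔEC library by more than the whole spread among the ControlΔEC libraries. The means were 26.2 ± 18.1 CPM in ControlΔEC and 156 ± 46.7 CPM in Wt1KOΔEC (SD, n = 3), and the fitted difference was 5.95-fold (log2 fold change 2.57, standard error 0.54). It did not pass edgeR's quasi-likelihood test after Benjamini-Hochberg adjustment over all 16296 genes tested (adjusted p = 0.128, unadjusted p = 0.00097), and it passed with DESeq2 (adjusted p = 0.0151). The two-sided exact permutation test over libraries gave p = 0.1, and no smaller p can come from 3 libraries per group. In sorted bulk samples, more cells of a type and more RNA per cell cannot be told apart.

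The embryonic alpha-like globin *Hba-x* differed in the same direction. It was at 18.8, 11.3 and 2.60 CPM in ControlΔEC and at 70.6, 30.3 and 41.5 CPM in Wt1KOΔEC, in the order of the replicates. Again no library of a group lay within the range of the other, with ControlΔEC replicate 3 the lowest of all, at 75 counts. The means were 10.9 ± 8.13 CPM and 47.4 ± 20.8 CPM (SD, n = 3), a fitted difference of 4.33-fold (log2 fold change 2.11, standard error 0.61). The adjusted p was 0.220 with edgeR's quasi-likelihood test (unadjusted p = 0.00673) and 0.00718 with DESeq2, and the exact permutation p was 0.1.

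*Hbb-bh1*, the other embryonic beta-like globin, had the lowest counts of the 9 members. ControlΔEC replicates 1, 2 and 3 held 28, 54 and 0 counts (0.626, 1.09 and 0 CPM), and Wt1KOΔEC replicates 1, 2 and 3 held 162, 20 and 53 counts (4.15, 0.562 and 2.10 CPM). The groups overlapped, because Wt1KOΔEC replicate 2 lay below ControlΔEC replicates 1 and 2. In ControlΔEC replicate 3 a level of up to 0.104 CPM is possible with no count. The fitted log2 fold change of 1.97 had a standard error of 1.46 (adjusted p = 0.650 from edgeR), and did not pass the test.

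**Figure D1:**
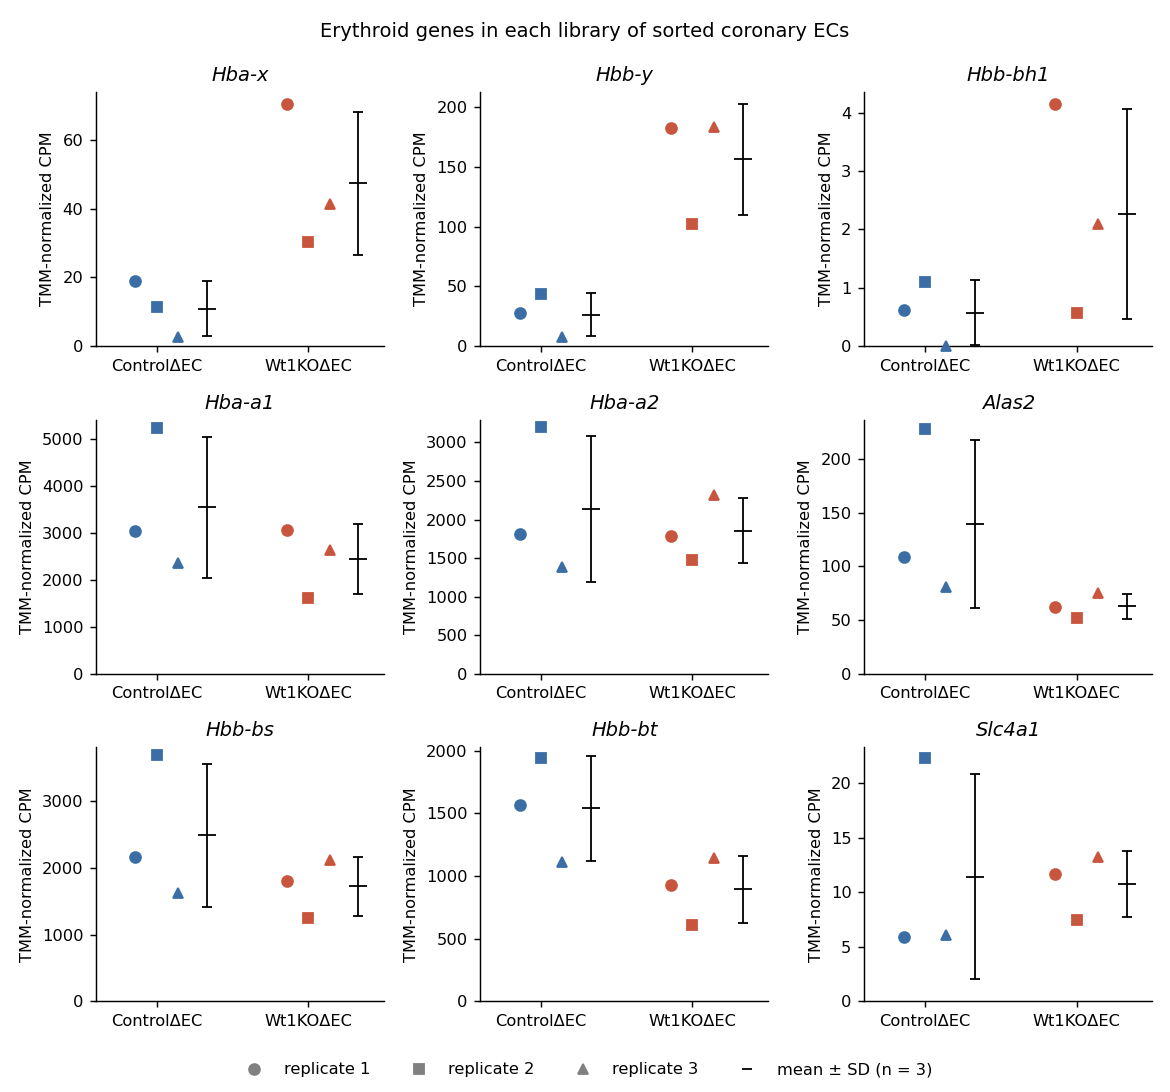
TMM-normalized CPM of the 9 erythroid genes (linear axes from 0) in each ControlΔEC library (blue) and Wt1KOΔEC library (red), with the replicate number given by the symbol and mean ± SD (n = 3) in black. *Hba-x* and *Hbb-y* were higher in every Wt1KOΔEC library and *Alas2* was lower, while the groups overlapped for the other 6 genes.

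The adult alpha globins did not differ beyond the spread between libraries. *Hba-a1* was at 3044, 5240.1 and 2367 CPM in ControlΔEC replicates 1, 2 and 3 and at 3067, 1621 and 2647 CPM in Wt1KOΔEC. *Hba-a2* was at 1815, 3196 and 1382 CPM in ControlΔEC and at 1785, 1470.5 and 2316 CPM in Wt1KOΔEC. For both genes ControlΔEC replicate 2 was the highest of the 6 libraries, while ControlΔEC replicate 1 lay among those of Wt1KOΔEC and ControlΔEC replicate 3 was the lowest library for *Hba-a2*. The log2 fold changes were -0.54 ± 0.31 and -0.20 ± 0.30 (± standard error), and edgeR's quasi-likelihood test gave them adjusted p = 0.525 and 0.862. Without ControlΔEC replicate 2 they were -0.14 and 0.22, so the direction of *Hba-a2* turned with 1 library.

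The adult beta globins were lower on average in Wt1KOΔEC, also with overlap. *Hbb-bs* was at 2158, 3692 and 1624 CPM in ControlΔEC replicates 1, 2 and 3 and at 1802, 1253 and 2127 CPM in Wt1KOΔEC. *Hbb-bt* was at 1569, 1945 and 1108 CPM in ControlΔEC and at 928, 608 and 1141 CPM in Wt1KOΔEC. For *Hbb-bt* the overlap was a single pair, since Wt1KOΔEC replicate 3 lay just above ControlΔEC replicate 3. *Hbb-bs* had a log2 fold change of -0.53 ± 0.30 (edgeR adjusted p = 0.514) and of -0.13 without ControlΔEC replicate 2. That of *Hbb-bt* was -0.79 (standard error 0.26), with an unadjusted p of 0.0152 and an adjusted p of 0.268 in edgeR's quasi-likelihood test and of 0.0375 in DESeq2. It ranged from -1.01 without Wt1KOΔEC replicate 3 to -0.58 without Wt1KOΔEC replicate 2.

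The counts of each adult pair are uncertain one by one. Of the 51-base stretches (the read length) of the *Hba-a1* transcript, 79.4% also occurred in *Hba-a2*, and 91.5% of those of *Hba-a2* in *Hba-a1*. *Hbb-bt* and *Hbb-bs* shared 58.1% and 61.9% of theirs, and RSEM divides reads that match both genes of a pair by estimation. No other pair of members shared a stretch of this length, so in these transcripts no read of an embryonic gene matches an adult gene over its whole length. Summed as 1 gene before the fit, *Hba-a1* and *Hba-a2* had a log2 fold change of -0.40 (adjusted p = 0.645 from edgeR), and *Hbb-bt* and *Hbb-bs* of -0.62 (adjusted p = 0.387).

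*Alas2*, whose enzyme supplies haem for the globin chains, was lower in Wt1KOΔEC. It was at 109, 228 and 80.4 CPM in ControlΔEC replicates 1, 2 and 3 and at 62.2, 51.6 and 74.9 CPM in Wt1KOΔEC replicates 1, 2 and 3. All 3 Wt1KOΔEC libraries lay below all 3 ControlΔEC libraries, but ControlΔEC replicate 3 and Wt1KOΔEC replicate 3 were close, and ControlΔEC replicate 2 stood far above the rest. The means were 139 ± 78.1 CPM and 62.9 ± 11.7 CPM (SD, n = 3), and the fitted level in ControlΔEC was 2.21-fold that in Wt1KOΔEC (log2 fold change -1.15, standard error 0.35). The adjusted p was 0.243 in edgeR's quasi-likelihood test (unadjusted p = 0.00965) and 0.0217 in DESeq2, and the exact permutation p was 0.1. Without ControlΔEC replicate 2 the log2 fold change was -0.59.

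*Slc4a1* did not separate the groups. It was at 5.92, 22.3 and 6.04 CPM in ControlΔEC replicates 1, 2 and 3 and at 11.7, 7.41 and 13.3 CPM in Wt1KOΔEC. ControlΔEC replicate 2 was the highest library and the other ControlΔEC libraries the lowest. Its log2 fold change was -0.09 ± 0.54 (edgeR adjusted p = 0.975), and 0.85 without ControlΔEC replicate 2, so its direction was not determined.

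Single libraries stood apart in the same way across the members. ControlΔEC replicate 2 was the highest ControlΔEC library for 8 of the 9 genes, all but *Hba-x*. ControlΔEC replicate 3 was the lowest ControlΔEC library for 8 of the 9, all but *Slc4a1*, and Wt1KOΔEC replicate 2 was the lowest Wt1KOΔEC library for all 9. With each library left out in turn, the log2 fold change of *Hbb-y* stayed between 2.14 (without ControlΔEC replicate 3) and 3.15 (without ControlΔEC replicate 2), and that of *Hba-x* between 1.66 (without ControlΔEC replicate 3) and 2.76 (without ControlΔEC replicate 1). The bars of these genes in the plot of fold changes lie apart from those of the adult globins, *Alas2* and *Slc4a1*.

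**Figure D2:**
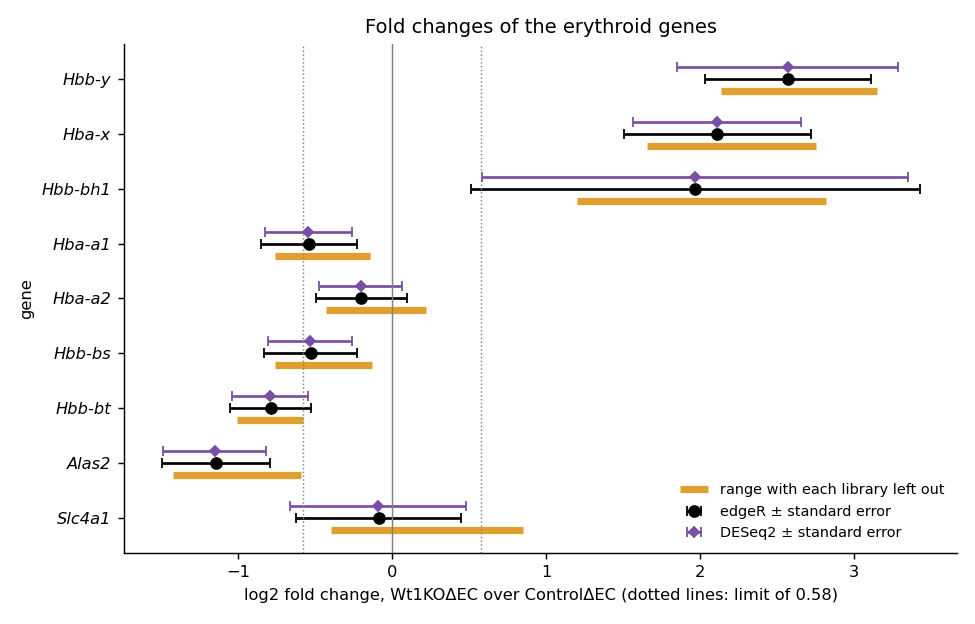
Log2 fold change (Wt1KOΔEC over ControlΔEC) of each of the 9 genes from edgeR (black circles) and DESeq2 (purple diamonds), each ± standard error, and the range over 6 fits that each leave out 1 library (orange bars), with dotted lines at the limit of 0.58 in either direction. *Hbb-y* and *Hba-x* had fold changes of 1.66 or above in every fit drawn, *Hba-a2* and *Slc4a1* had ranges that cross 0, and *Alas2* came as close to 0 as -0.59.

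None of the 9 members passed an adjusted p under 0.05 with an absolute log2 fold change above 0.58 in edgeR's quasi-likelihood test, which called 0.0736% of the 16296 genes tested (0.0491% higher and 0.0245% lower in Wt1KOΔEC). At an unadjusted p under 0.05 and the same limit, 4 members passed, against 10.1% of all genes tested (4.17% higher and 5.96% lower). These were *Hba-x* and *Hbb-y*, higher in Wt1KOΔEC, and *Hbb-bt* and *Alas2*, lower. The same 4 passed with DESeq2, which called 3.68% of all genes tested (1.66% higher and 2.02% lower), while limma-voom called 0 members and edgeR's likelihood ratio test, chosen once the data were known, called *Hba-x* and *Hbb-y*. The groups did not overlap for 3 of the 9 members, *Hba-x*, *Hbb-y* and *Alas2*, against 19.3% of all genes tested (10.3% higher and 8.97% lower). The median log2 fold change of the 9 genes was -0.20, beside -0.03 over all genes tested, whose 5th and 95th percentiles were -1.81 and 1.42. The members went in both directions, with 3 above 0, all of them embryonic globins, and 6 below 0. The members are few and some share reads, so these counts are a description.

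Relative to the adult globins of the same library, the embryonic globins took a larger share in Wt1KOΔEC. *Hbb-y* and *Hbb-bh1* together made up 0.811%, 0.840% and 0.290% of the beta-like globin counts per kb in ControlΔEC replicates 1, 2 and 3, and 6.83%, 5.59% and 5.74% in Wt1KOΔEC replicates 1, 2 and 3. The Wt1KOΔEC shares lay close together and far above all 3 ControlΔEC shares, with means of 6.05% ± 0.678 and 0.647% ± 0.310 (SD, n = 3), a ratio of 9.36. *Hba-x* made up 0.338%, 0.117% and 0.0608% of the alpha-like counts per kb in ControlΔEC and 1.26%, 0.839% and 0.717% in Wt1KOΔEC. These shares did not overlap either, and the means of 0.172% ± 0.147 and 0.938% ± 0.284 had a ratio of 5.45. A share within a library does not depend on how many counts the globins took in it, and because these are scores over chosen members they are given without a test.

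In absolute terms the embryonic sum was higher and the adult sum overlapped. *Hba-x*, *Hbb-y* and *Hbb-bh1* summed to 47.2, 55.9 and 9.99 CPM in ControlΔEC and to 258, 133 and 227 CPM in Wt1KOΔEC. The 4 adult globins summed to 8586, 14073 and 6480.5 CPM in ControlΔEC and to 7582, 4952 and 8230.0 CPM in Wt1KOΔEC. Wt1KOΔEC replicate 2, with the lowest adult sum of all 6 libraries, still held more embryonic globin than any ControlΔEC library.

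Other ratios among the members were closer between the groups. Per kb, alpha-like over beta-like globin was 1.26, 1.44 and 1.33 in ControlΔEC and 1.62, 1.55 and 1.41 in Wt1KOΔEC, and *Hbb-y* over *Hba-x* was 1.86, 4.86 and 3.59 in ControlΔEC and 3.28, 4.28 and 5.61 in Wt1KOΔEC. Both ratios overlapped between the groups. *Alas2* was at 4.32, 5.49 and 4.21 per 1000 of adult globin (both per kb) in ControlΔEC and at 2.79, 3.51 and 3.07 in Wt1KOΔEC, without overlap. *Slc4a1* was at 0.105, 0.241 and 0.142 per 1000 of adult globin in ControlΔEC and at 0.235, 0.226 and 0.243 in Wt1KOΔEC, and ControlΔEC replicate 2 lay within the Wt1KOΔEC range. *Alas2* was therefore lower in Wt1KOΔEC also relative to the adult globins, while *Slc4a1* was not.

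**Figure D3:**
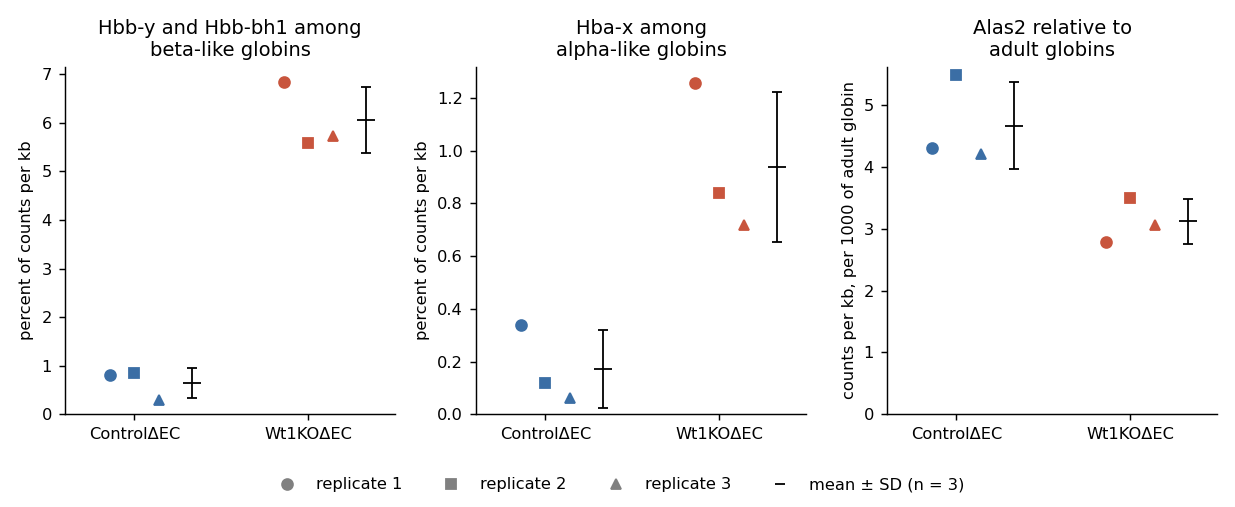
Shares within each library, computed from counts per kb of transcript: *Hbb-y* with *Hbb-bh1* as a percent of the 4 beta-like globins (left), *Hba-x* as a percent of the 3 alpha-like globins (middle) and *Alas2* per 1000 of the 4 adult globins (right), with mean ± SD (n = 3) in black and linear axes from 0. The embryonic shares were 5.59% to 6.83% and 0.717% to 1.26% in Wt1KOΔEC, above every ControlΔEC library, and *Alas2* was below every ControlΔEC library.

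The profile of the summed globins over the 6 libraries was carried by the adult genes. Likeness to it was measured as the root mean square difference of log2 CPM, each gene centred on its mean over the 6 libraries. *Hbb-bs* differed from the sum by 0.0554, *Hba-a1* by 0.116, *Hba-a2* by 0.177, *Hbb-bt* by 0.237, *Alas2* by 0.343 and *Slc4a1* by 0.455. The embryonic genes *Hba-x*, *Hbb-y* and *Hbb-bh1* differed from it by 1.60, 1.71 and 1.86. Of 8410 other genes with a mean of at least 10 CPM, the nearest were *Surf2* (0.0984), *Fbxl4* (0.101), *Man2a1* (0.119), *Rilpl2* (0.124) and *Fam32a* (0.134), where the 5th percentile was 0.335 and the median 0.542. The profile has 6 points, and in it ControlΔEC replicate 2 was highest and Wt1KOΔEC replicate 2 lowest.

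Other genes that erythroid cells use were examined as lists, and none of their members passed edgeR's adjusted threshold. Among genes for haem synthesis and erythroid iron supply, all 12 were tested, 4 were higher and 8 lower in Wt1KOΔEC, and the median log2 fold change was -0.13. The 2 with an unadjusted p under 0.05 went in opposite directions. *Alad*, which encodes the enzyme that follows ALAS2, was at 44.6, 42.3 and 31.9 CPM in ControlΔEC and at 76.1, 59.0 and 55.6 CPM in Wt1KOΔEC (log2 fold change 0.68, edgeR adjusted p = 0.240). *Fech*, which encodes the enzyme that inserts iron to complete haem, was at 59.6, 85.9 and 56.5 CPM in ControlΔEC and at 44.1, 42.5 and 45.6 CPM in Wt1KOΔEC (log2 fold change -0.61, edgeR adjusted p = 0.261). Neither gene overlapped between the groups, and both are used by all cells that make haem. *Urod*, which encodes a further enzyme of the pathway, had a log2 fold change of -0.26.

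Genes of the erythroid membrane and surface had a median log2 fold change of -0.32, with 6 higher and 9 lower of 15 tested (18 on the list). The most abundant were *Gypc* (-0.32), *Epb41* (-0.46), *Dmtn* (0.51) and *Add2* (-0.68 on the log2 scale), of which *Add2* had an unadjusted p under 0.05. *Epb42*, for a protein that binds band 3, was at 0, 0 and 0.728 CPM in ControlΔEC and at 0.486, 1.66 and 0.158 CPM in Wt1KOΔEC. The groups overlapped for *Epb42*, which had no count in ControlΔEC replicate 2, the highest library in adult globin.

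The list of erythroid transcription factors with the erythropoietin receptor gene *Epor* had 13 genes, of which 11 were tested. Of these, 7 were higher and 4 lower, with a median log2 fold change of 0.42 and no unadjusted p under 0.05. *Lmo2* (-0.01), *Lyl1* (0.75), *Ldb1* (0.42) and *Tal1* (0.53 on the log2 scale) were the most abundant, and ECs express them too. The summed level of the list was 78.2 to 115 CPM in ControlΔEC and 118 to 128 CPM in Wt1KOΔEC. *Gata1*, the factor that defines the erythroid lineage, was at 4.85, 0 and 0 CPM in ControlΔEC and at 0.768, 1.74 and 0 CPM in Wt1KOΔEC. *Klf1*, which switches on adult beta globin, was too low to be tested, with at most 0.197 CPM in any library. *Gata1* had no count in 3 of the 6 libraries, and the adult globins summed to at least 4952 CPM in every library.

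Of the other erythroid genes, 12 of 14 were tested, 10 were higher and 2 lower, and the median log2 fold change was 0.20. *Prdx2* (0.00), *Bnip3l* (0.15), *Xpo7* (-0.04) and *Bpgm* (0.01 on the log2 scale) were the most abundant. *Hemgn*, the only one with an unadjusted p under 0.05, had no count in ControlΔEC and was at 1.31, 0 and 0.475 CPM in Wt1KOΔEC. Among the other globin genes, 3 of 12 were tested, and *Mb*, *Cygb* and *Ngb* had log2 fold changes of -0.42, -1.11 and -0.29, none with an unadjusted p under 0.05. The globin models *Hbb-bh0*, *Hbb-bh2*, *Hbb-bh3* and *Hba-ps3* were listed at 0 in all 6 libraries.

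**Figure D4:**
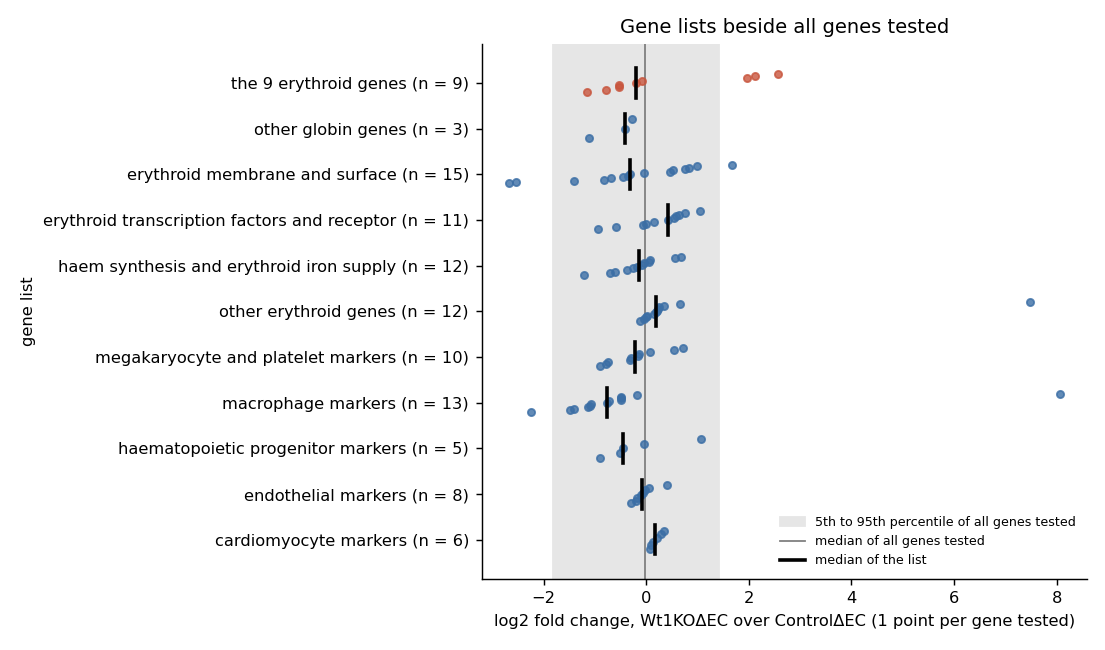
Log2 fold change (Wt1KOΔEC over ControlΔEC, edgeR) of each tested gene of the 9 members (red) and of 10 lists (blue), with the median of each list as a black bar, the median of all 16296 genes tested as a grey line and their 5th to 95th percentile, -1.81 to 1.42, as grey shading. The 3 embryonic globins lie right of the shading; the points near 8, *Hemgn* and *Timd4*, had no count in ControlΔEC, and their positions depend on the prior count of the fit.

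Markers of other cells that a sort of digested ventricles could hold were measured in the same fit, and none passed edgeR's adjusted threshold. Of 13 macrophage markers, 12 were lower and 1 higher in Wt1KOΔEC, with a median log2 fold change of -0.76, and their summed level was 346 to 1020.3 CPM in ControlΔEC and 272 to 375 CPM in Wt1KOΔEC. *Csf1r*, the receptor that macrophages need, was at 153, 327 and 103 CPM in ControlΔEC and at 72.5, 92.1 and 57.1 CPM in Wt1KOΔEC, without overlap. It passed in DESeq2 (adjusted p = 0.00463), as did *Adgre1*, lower, and *Timd4*, higher with no count in ControlΔEC. ControlΔEC replicate 2 was the highest of all libraries in *Csf1r*, *C1qb*, *Mrc1* and *Lyz2*, the 4 most abundant macrophage markers, as it was in the adult globins, *Alas2* and *Slc4a1*. The embryonic globins did not have this order, and the part of macrophages in the levels of the members was not tested.

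Of 10 megakaryocyte and platelet markers, 3 were higher and 7 lower (median log2 fold change -0.22), and their summed level was 41.6 to 72.6 CPM in ControlΔEC and 18.4 to 71.7 CPM in Wt1KOΔEC. *Itga2b* and *Pf4* had log2 fold changes of -0.31 and -0.74, the latter without overlap and with an unadjusted p under 0.05. *Gp1ba*, 1 of the 3 that were higher, had a log2 fold change of 0.72, with overlap. Of 5 haematopoietic progenitor markers tested, 1 was higher and 4 lower (median log2 fold change -0.44). *Kit* was the most abundant, at 215 to 426 CPM over all libraries, with a log2 fold change of -0.51. *Ly6a*, the 1 that was higher, had a log2 fold change of 1.07. It was at 5.72, 10.4 and 3.82 CPM in ControlΔEC and at 15.7, 13.8 and 12.3 CPM in Wt1KOΔEC. Neither *Kit* nor *Ly6a* overlapped between the groups, and both had an unadjusted p under 0.05 in edgeR's quasi-likelihood test. The part of megakaryocytes, platelets or progenitors in the levels of the members was not tested. All 6 cardiomyocyte markers tested had log2 fold changes above 0, from 0.08 for *Myl7* to 0.35 for *Myl2*, with a summed level of 118 to 160.3 CPM in ControlΔEC and 90.7 to 213 CPM in Wt1KOΔEC. The endothelial markers had a median log2 fold change of -0.08 (2 of 8 higher) and overlapping sums of 4771 to 6160.1 CPM in ControlΔEC and 4815 to 5536 CPM in Wt1KOΔEC.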

How the data were processed

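mGFP+ coronary ECs from ControlΔEC and Wt1KOΔEC hearts were sequenced by the SMART-seq2 protocol, with 3 libraries each. The authors mapped reads with STAR 2.7.8a and estimated gene counts with RSEM 1.3.0. The paper's methods name GRCm39 and GENCODE vM27, while the labels name GRCm38. The deposited values were expected counts per gene, without normalization, and were used as whole numbers. Groups and replicate numbers came from the labels. Genes that reached 10 counts in 2 or more libraries were compared in R 4.3.3 with edgeR 4.0.16 (TMM normalization, quasi-likelihood test, Benjamini-Hochberg adjustment over the 16296 genes kept). DESeq2 1.42.0, which the study used in version 1.18, limma 3.58.1 (voom), other normalizations and filters, a replicate block and leaving out each library were alternatives. The threshold for a call was an adjusted p of 0.05 together with a log2 fold change beyond 0.58 in either direction, the study's limit. Standard errors are the fold change over the square root of F. The fits of single genes with edgeR, DESeq2 and limma-voom were tested on simulated counts. Replicates are labelled as biological, and no pair of libraries of the same group agreed within sampling noise (chi-square per gene at least 61.2). Same-numbered libraries did not deviate together (correlations 0.0045 to 0.057), so the numbers were taken as names.

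The members and lists were chosen with earlier results of these data known. Genes named are the members, *Wt1*, up to 4 genes of each list with the highest mean CPM, markers at 0, and the 5 nearest in profile. *Hemgn*, *Pf4*, *Adgre1*, *Timd4*, *Rn18s*, *Epor* and *Myl7* were picked with their values in view. Positions came from GENCODE vM39, which held 98.8% of the gene IDs, and promoters from RefSeq. Some genes of the lists are not reported here.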

Additional observations from a re-analysis of the deposited data

How the results depend on the processing

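The count of called genes depended on the tool, the filter and single libraries. Over all genes, 12 were called by edgeR's quasi-likelihood test, 599 by DESeq2, 296 with no filter on low counts, 113 with at least 10 counts in every library and 2 to 37 with single libraries left out, and 432 by the likelihood ratio test and 759 by DESeq2 without the filter, both added after the data had been seen. Of the members 0 were called, 4 by DESeq2, 3 with no filter, 1 with at least 10 counts in every library, where *Hbb-bh1* was not tested, 2 by the likelihood ratio test, 3 by DESeq2 without the filter and 0 with any library left out. Of the macrophage markers 0 were called, 3 by DESeq2 with or without the filter, 2 with no filter and 3 by the likelihood ratio test; no other list gained a call. The cause of these differences was not tested. Each filter also changed how many genes were tested, and the member counts under other filters stand without a share of all genes.

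In the fits that each lacked 1 library, *Hba-a2* had log2 fold changes between -0.43 and 0.22 (without ControlΔEC replicate 2), and *Slc4a1* between -0.40 and 0.85 (without ControlΔEC replicate 2; 0.12 without Wt1KOΔEC replicate 2). *Slc4a1* was at 0.043 with limma-voom and at 0.22 with the replicate block. The other 7 members kept their direction under every alternative in which they were tested, with *Hbb-y* between 2.14 and 3.15 and *Hba-x* between 1.66 and 2.76. With the replicate number as a block, 5 genes and 0 members were called. Neither the labels nor the methods say whether the numbers pair the libraries. Without division by length, the embryonic share of beta-like globin was 0.603% and 5.68% in place of 0.647% and 6.05%, and neither the *Hba-x* share nor the ratio of alpha-like to beta-like globin moved by more than its SD. *Alas2* per 1000 of adult globin, which scales with the transcript lengths, was 13.8 and 9.24 in place of 4.67 and 3.12, also without overlap. *Hbb-bh1*, *Gata1* and *Klf1* each had no count in at least 1 library, which allows a level up to that library's floor.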
